A study of Homo sapiens with 24 samples.

Results

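Galunisertib, a small-molecule inhibitor of the kinase of the type I receptor for transforming growth factor beta (TGFβ), was added together with TGFβ1 to SNU-449 cells, and the RNA of these cultures was set against that of cultures given TGFβ1 alone. The comparison rests on 6 of the 24 arrays of the series, defined by their labels: the 3 labelled SNU-449, TGFb + Galunisertib and the 3 labelled SNU-449, TGFb. SNU-449 is an established human line from a hepatocellular carcinoma (HCC), so the replicates are independent cultures of 1 line, and p-values describe the spread between such cultures. Both groups were starved of serum overnight and then exposed for 16 h to recombinant human TGFβ1 at 1 ng/mL, and only the combined group also received galunisertib, at 10 µM. The other SNU-449 arrays hold 3 untreated control cultures and 3 cultures with galunisertib alone, and the same 4 groups exist for PLC/PRF/5, the other HCC line of the study. The question was what inhibition of the receptor changed in cells in which TGFβ was present.

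TGFβ is secreted in a latent form, bound to carrier proteins, and once released it joins a type II receptor that switches on the kinase of the type I receptor. That kinase phosphorylates SMAD2 and SMAD3, which enter the nucleus with SMAD4 and switch on target genes, among them several inhibitors that hold the pathway back. In epithelial and liver cells TGFβ is known for arresting growth and for driving the epithelial to mesenchymal transition (EMT), in which repressors of the SNAIL family silence the adhesion gene CDH1.

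The feedback inhibitors are the group in which the pathway's own target genes are best known, so the promoters of the 4 that met the call rule of this comparison are shown, with the letters CAGAC and GGCGC, both described as SMAD-binding motifs, in capitals on either strand. Each line holds the 250 bases before the first start listed by RefSeq on GRCh38.p14, read 5′ to 3′ on the strand of the gene: chr18:13217722-13217971 (plus strand) for LDLRAD4, chr20:57711473-57711722 (minus strand) for PMEPA1, chr3:170357465-170357714 (plus strand) for SKIL and chr18:48950966-48951215 (minus strand) for SMAD7.
LDLRAD4: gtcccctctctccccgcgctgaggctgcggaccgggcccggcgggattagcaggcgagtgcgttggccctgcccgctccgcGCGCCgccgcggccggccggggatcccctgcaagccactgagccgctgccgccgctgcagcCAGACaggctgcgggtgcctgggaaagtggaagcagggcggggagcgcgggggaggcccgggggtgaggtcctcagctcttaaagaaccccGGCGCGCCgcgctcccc
PMEPA1: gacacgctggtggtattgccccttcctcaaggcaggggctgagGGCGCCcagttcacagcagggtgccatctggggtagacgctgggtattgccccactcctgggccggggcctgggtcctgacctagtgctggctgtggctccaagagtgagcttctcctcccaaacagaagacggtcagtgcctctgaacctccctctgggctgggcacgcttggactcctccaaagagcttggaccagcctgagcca
SKIL: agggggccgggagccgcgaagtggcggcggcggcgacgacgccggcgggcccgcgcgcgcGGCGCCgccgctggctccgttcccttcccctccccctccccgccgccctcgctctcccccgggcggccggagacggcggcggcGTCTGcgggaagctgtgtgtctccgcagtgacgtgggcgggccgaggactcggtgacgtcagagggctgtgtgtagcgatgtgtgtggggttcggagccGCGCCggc
SMAD7: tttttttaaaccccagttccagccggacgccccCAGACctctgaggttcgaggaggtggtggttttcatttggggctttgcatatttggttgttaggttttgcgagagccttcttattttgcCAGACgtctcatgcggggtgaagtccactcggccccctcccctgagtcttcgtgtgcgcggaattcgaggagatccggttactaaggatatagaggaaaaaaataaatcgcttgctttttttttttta
The SMAD7 window held CAGAC at 2 places and GGCGC at 0, the PMEPA1 window held GGCGC at 2 places that overlap on opposite strands and CAGAC at 0, and those of LDLRAD4 and SKIL each held CAGAC once and GGCGC at 3 places, of which some overlap on opposite strands. RefSeq lists 9 starts for LDLRAD4, 4 for PMEPA1, 3 for SMAD7 and 1 for SKIL. Among windows of the same length, 1 for each of 27305 genes, 37.8% held CAGAC and 44.2% held GGCGC. The shares were 36.3% and 67.2% among 11174 genes tested here, 41.1% and 63.1% among the 236 genes that fell by the rule and had a window, and 40.5% and 49.2% among the 185 that rose. These matches describe letters in a window and are not binding sites.

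A level is given here as the log2 of a probe's signal relative to the 75th percentile among spots of that array, so that 0 stands at this percentile, and weaker signals were raised to a floor of -4.13, where values have no order. A difference is the mean level with TGFβ and galunisertib minus that with TGFβ alone, on the log2 scale, with its standard error (SE) from limma. A gene was called where the fold change was above 2 and the unadjusted P below 0.001, and adjusted p-values are Benjamini-Hochberg values over all genes tested. That percentile ranged from 227 to 262 intensity units for TGFβ and from 201 to 227 for the combined treatment, the lowest correlation between replicates of these groups was 0.983, and 0 spots were saturated. Each replicate number was 1 slide, and on every slide the combined group took the column beside the TGFβ group, so treatment and position on the slide cannot be told apart. Both groups lay in the same slide row. The untreated and galunisertib-alone SNU-449 arrays lay in another row, so levels set against them also differ in row. The mesenchymal markers VIM (8.45 with TGFβ and 8.33 with both) and SPARC (5.32 and 5.16) were detected on each of the 6 arrays, while ALB, APOB, CD3E and PECAM1 were detected on 0 of them. Of the hepatocyte markers FGB was detected (4.26 and 4.16), and APOA1, SERPINA1 and TTR were near the floor.

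Of 16072 genes tested, 614 were called (3.82%), 286 higher (1.78%) and 328 lower (2.04%) with galunisertib. At an adjusted p below 0.05, 1568 genes (9.76%) were higher and 1187 (7.39%) lower, and with a fold above 2 added, 368 (2.29%) and 407 (2.53%). The median difference was 0.01 over all genes, 1.36 over the called rises and -1.43 over the called falls. Scaling the arrays to their medians instead moved the median of all genes to -0.15 and the split to 220 higher and 471 lower, and without scaling it was -0.17 with 193 higher and 462 lower. The balance of rises and falls is therefore not settled by these arrays, and single differences within about 0.2 of 0 are given no direction below. The groups did not overlap for 43.5% of all genes tested. Of the called falls 19.5%, and of the called rises 13.3%, were read from probes within 10 rows or columns of the edge of the array, against 15.8% of all genes.

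**Figure D1:**
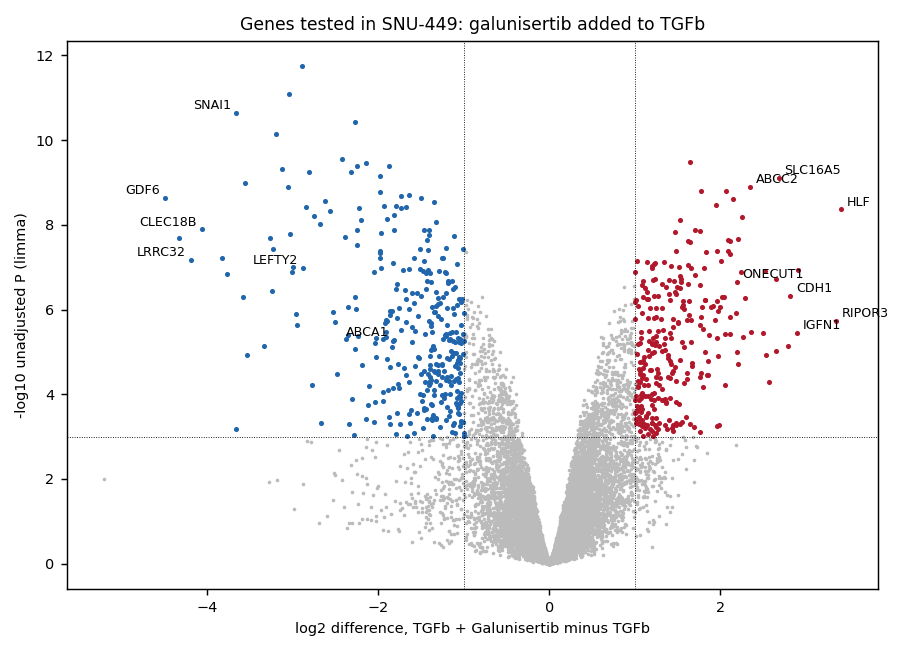
Each point is 1 of the 16072 genes tested, with the log2 difference (TGFb + Galunisertib minus TGFb) on the horizontal axis and -log10 of limma's unadjusted P on the vertical axis; dotted lines mark the 2-fold and P limits, and called genes are red (286 higher) or blue (328 lower). SNAI1 and GDF6 lie far out among the falls and HLF and SLC16A5 among the rises.

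SNAI1, HLF, CDH1, ABCC2 and ABCA1 were all called. SNAI1, the repressor of CDH1 that TGFβ switches on during EMT, stood at 1.59, 1.66 and 1.67 on the TGFβ arrays and at -1.85, -2.04 and -2.17 with galunisertib, a 12.6-fold fall (-3.66 ± 0.12, adjusted p = 1.20e-07). The groups lay far apart, and the untreated cultures (-1.63, -1.85 and -1.81) were within about 0.5 of the combined group. CDH1, which encodes E-cadherin, rose 7.07-fold, from -3.47, -3.52 and -3.33 to -0.69, -0.59 and -0.59 (2.82 ± 0.25, adjusted p = 4.62e-05). The 3 combined arrays of CDH1 lay within about 0.1 of each other, and all were above the untreated cultures (-1.98, -1.06 and -1.29). The TGFβ arrays of CDH1 were well above background but near the floor. Its difference ran from 1.42 to 2.88 over the alternatives, and it was called in each.

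HLF, a PAR bZIP transcription factor of the adult liver, showed the largest called rise among genes well above background on all 6 arrays. It stood at -3.09, -3.12 and -2.84 with TGFβ, not far above the floor, and at 0.39, 0.31 and 0.50 with galunisertib added, a 10.7-fold rise (3.42 ± 0.19, adjusted p = 1.91e-06). Over the alternatives the difference of HLF ran from 1.99 to 3.51, and it was called in each. ABCC2, the canalicular transporter of conjugated bilirubin and drugs, rose 5.1-fold, from 0.14, -0.04 and -0.08 to 2.25, 2.37 and 2.46 (2.35 ± 0.11, adjusted p = 1.16e-06). In both genes the groups were separated by many times their spread. ABCA1, which exports cholesterol to apolipoproteins, fell 3.53-fold, from 2.04, 2.06 and 2.07 to 0.63, 0.22 and -0.14 (-1.82 ± 0.21, adjusted p = 2.25e-04). Its 3 combined arrays were spread over a wider range than its TGFβ arrays, and another probe of the gene gave -1.01. An alternative test was a plain t-test of the 2 groups, without the random variance model that the methods name. By it 19 of the 68 genes chosen by the rules for named genes missed the P threshold, among them ABCA1 (adjusted p = 0.0173), FOXS1 (adjusted p = 0.0276), NKAIN4, RPS10P7, NOG, LEFTY1, LTBP1, PMEPA1, SKIL, SMAD7, ID3, COL1A1, SNAI2, NR5A2, CXCL2, BIRC3, CD14 and H1-9P.

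**Figure D2:**
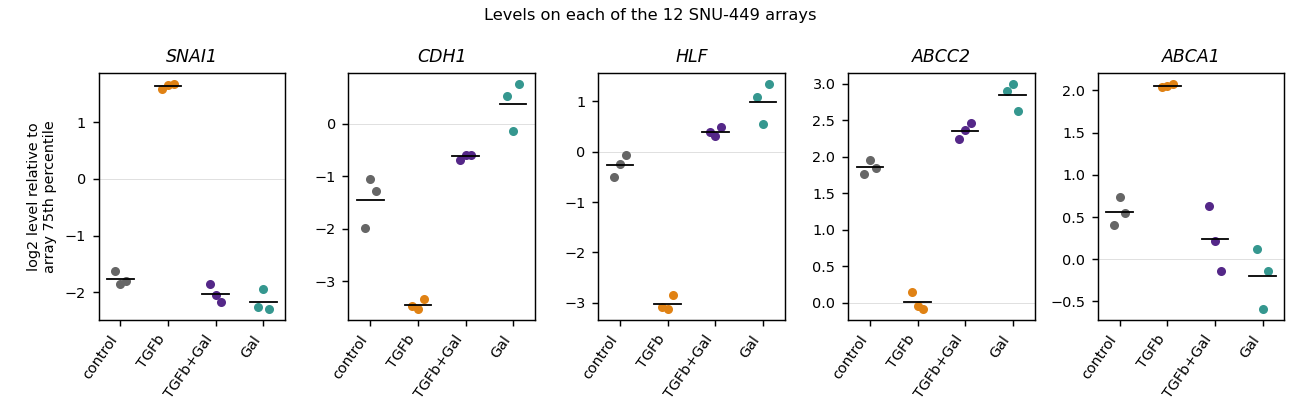
Levels (log2 of the signal over the 75th percentile of its array) of SNAI1, CDH1, HLF, ABCC2 and ABCA1 on each of the 12 SNU-449 arrays, drawn as 1 point per array and a bar at the mean of each group of 3. For each gene the 3 TGFb arrays lie apart from the 3 TGFb+Gal arrays, and the vertical axes differ between panels.

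The largest falls among genes well above background on all 6 arrays included secreted factors and regulators. GDF6, a BMP family ligand, stood at 1.06, 1.08 and 1.21 with TGFβ and at -2.94, -3.46 and -3.73 with galunisertib, a 22.6-fold fall (-4.50 ± 0.23, adjusted p = 1.48e-06). CLEC18B, a C-type lectin, fell from 2.02, 1.79 and 1.65 to -2.61, -1.79 and -2.32 (-4.06 ± 0.25, adjusted p = 4.23e-06). IL11, a cytokine of the IL6 family, fell from 5.24, 5.32 and 5.50 to 2.36, 1.81 and 1.27 (-3.54 ± 0.45, adjusted p = 4.07e-04). In all 3 genes the lowest TGFβ array was above the highest combined array, which the rule of their choice required. FOXS1, a forkhead transcription factor, fell by 3.33, with combined arrays at 3.35, 3.10 and 1.69. NKAIN4 fell by 3.24, with combined arrays at 1.26, 0.92 and -0.06. In IL11, FOXS1 and NKAIN4 the combined array of replicate 3 was the lowest of its group, as it was in 169 of the 328 called falls. ADAM19, a membrane metalloprotease, fell by 3.27 and the actin-binding ABLIM3 by 3.04, from -0.06, -0.16 and 0.00 to -3.04, -3.21 and -3.08. The pseudogene RPS10P7, a near copy of a ribosomal protein gene, fell by 3.66, from 4.70, 4.34 and 4.19 to 1.48, 1.67 and -0.90. Its combined arrays differed by over 2, its probe may also read the parent gene, and it lost its call in 11 of 22 other settings, among them leaving out any 1 replicate number (adjusted p = 0.108 without replicate 3) or any 1 of the 6 arrays but the combined array of replicate 2. The probes of IL11 and RPS10P7 lie near the edge of the array, and IL11 missed the P threshold without replicate 3 (-3.19, adjusted p = 0.0398).

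The largest rises after HLF were spread over genes of different kinds. RIPOR3 rose from -1.16, -1.52 and -1.88 to 2.03, 1.85 and 1.63 (3.36 ± 0.35, adjusted p = 1.12e-04). IGFN1, which encodes a protein with immunoglobulin-like and fibronectin domains, rose from 0.94, 0.34 and 0.17 to 3.16, 3.52 and 3.46 (2.90 ± 0.32, adjusted p = 1.83e-04). SLC16A5, a monocarboxylate transporter, rose from -1.21, -1.13 and -1.03 to 1.55, 1.56 and 1.57 (2.68 ± 0.12, adjusted p = 8.25e-07). The 3 combined arrays of SLC16A5 lay within 0.1 of each other. MSMP, a small secreted protein, rose by 2.52, from 1.99, 2.01 and 2.11 to 4.67, 4.30 and 4.71. ITGA10, an integrin subunit, rose by 2.65, with combined arrays at 1.35, 0.79 and 1.53. The small membrane protein gene SMIM5 rose by 2.91, WDR72 by 2.65 and the long noncoding RNA LINC00173 by 2.54. Groups did not overlap for any of these genes, which the rule of their choice required. The probes of RIPOR3 and SMIM5 lie near the edge of the array. IGFN1 missed the P threshold without replicate 3 (adjusted p = 0.0277) and LINC00173 without replicate 2 (adjusted p = 0.027). Of the other probes of LINC00173, each well above background on all 6 arrays, one gave 2.54 and one 0.09, and another probe of IGFN1 gave 1.47.

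**Figure D3:**
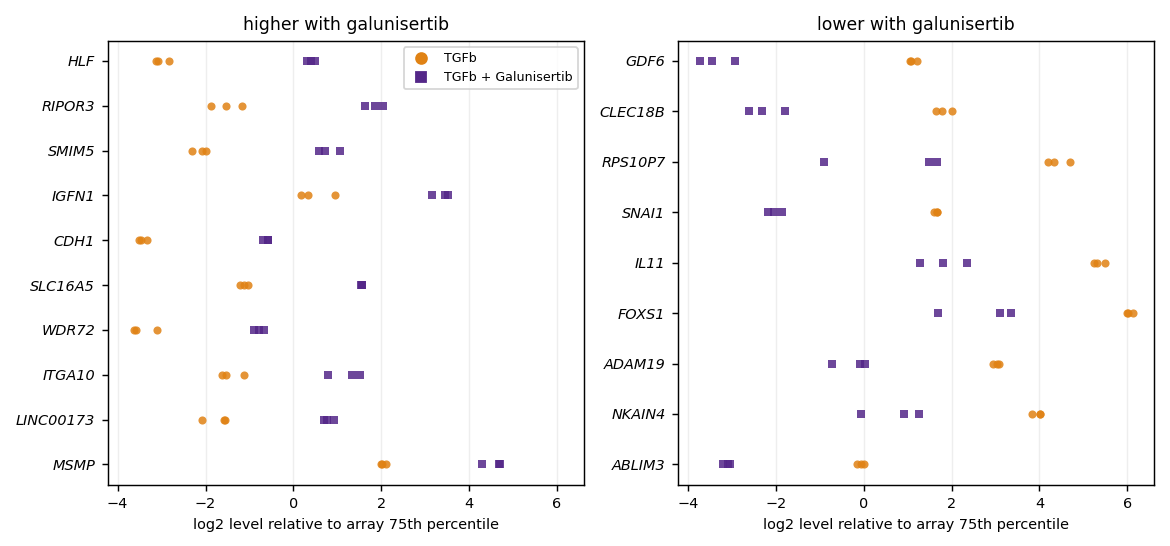
Levels (log2 of the signal over the 75th percentile of its array, horizontal axis) on the 3 TGFb arrays (orange circles) and the 3 TGFb + Galunisertib arrays (purple squares) for the named genes with the largest rises (left) and falls (right). The combined arrays of IL11, FOXS1, NKAIN4 and RPS10P7 are spread more widely than their TGFb arrays.

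Some genes were well above background in 1 group only, so their change is a bound. With galunisertib added, LDLRAD4 was at least 13-fold lower, RASGRP3, an exchange factor for RAS proteins, at least 10.8-fold lower and P2RY2, a receptor for extracellular nucleotides, at least 8.34-fold lower. RASGRP3 stood at -0.59, -0.69 and -0.42 on the TGFβ arrays, and its adjusted p was 1.04e-06. In the other direction LINC01099 was at least 4.8-fold higher, and LINC03017 and EID3, which encodes a subunit of a chromosome maintenance complex, each at least 3.04-fold higher. EID3 lost its call without any single combined or TGFβ array (adjusted p between 0.0149 and 0.0234), and LINC03017 without replicate 3 (adjusted p = 0.0524). The probe of LINC01099 lies near the edge, and other probes, well above background on 3 of 6 arrays, gave 1.76 and 0.66 for LINC01099 and -1.61 for P2RY2. Of the 328 called falls 51 were not well above background on any combined array, and of the 286 called rises 15 on any TGFβ array.

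Among the TGFβ ligands and the proteins that hold them latent, 6 of 8 tested were lower at an adjusted p below 0.05 and 0 higher, with a median difference of -0.97 against 0.01 over all genes. Over all genes 7.39% were lower and 9.76% higher at that limit. The lists here and below were written with earlier results of these data known. LRRC32, also called GARP, which docks latent TGFβ on the cell surface, fell from 0.86, 0.88 and 0.77 to -2.91, -3.02 and -4.13 (-4.19 ± 0.30, adjusted p = 1.26e-05). The combined array of replicate 3 lay at the floor, and the other two lay just under 4 below the TGFβ arrays. LTBP2, a matrix protein of the latent TGFβ-binding family, fell by 1.82, from 3.82, 3.68 and 3.75 to 2.05, 1.95 and 1.79, and LTBP1 by 1.09, near the floor with only 1 combined array well above background. LTBP1 lost its call in 5 of the settings that left out arrays or a slide, among them the TGFβ array of replicate 3 (-0.97) and the combined arrays of replicates 1 (-0.99) and 3 (-0.99). TGFB1 itself had a difference of -1.25 ± 0.35 (adjusted p = 0.033), while TGFB2 (-0.09) and TGFB3 (-0.11) did not pass.

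Of the receptors of the family tested 25% passed at an adjusted p below 0.05, against 9.76% of all genes higher and 7.39% lower. None of the signalling SMADs tested passed. Of 8 receptors of the family tested, TGFBR2, the type II receptor for TGFβ, was higher (0.99 ± 0.16, adjusted p = 0.0018) and BMPR2, the type II receptor for BMPs, lower (-1.38 ± 0.13, adjusted p = 6.74e-05), with a median of -0.21. BMPR2 stood at 1.25, 1.34 and 1.28 with TGFβ and at 0.10, -0.09 and -0.28 with galunisertib, with a gap of about 1 between the groups. TGFBR1, the receptor that galunisertib inhibits, had a difference of -0.34 ± 0.13 (adjusted p = 0.0993). Of 10 SMADs and partners 0 passed at an adjusted p below 0.05, with -0.17 for SMAD2, 0.08 for SMAD3 and -0.02 for SMAD4. The largest difference in this list, -1.77 for SMAD5, did not pass either. The SMAD5 probe lies near the edge and was well above background on 5 of the 6 arrays.

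Of 11 feedback inhibitors 9 were lower at an adjusted p below 0.05, 0 were higher, 4 were called, and the median was -0.98. LDLRAD4, which keeps receptors from reaching SMAD2 and SMAD3, stood at -0.33, -0.38 and -0.20 with TGFβ and at the floor on all 3 combined arrays (adjusted p = 1.15e-05). PMEPA1, its relative, fell from 7.47, 7.50 and 7.60 to 5.85, 5.44 and 4.92 (-2.12 ± 0.37, adjusted p = 0.00299). Its combined arrays were spread over about 1, against about 0.1 for its TGFβ arrays. SKIL, a corepressor that binds SMADs, fell from 0.18, 0.23 and 0.35 to -0.87, -1.18 and -1.61 (-1.48 ± 0.30, adjusted p = 0.00766). SMAD7, which blocks the type I receptor and whose probe lies near the edge, fell from 3.84, 3.73 and 3.76 to 2.59, 2.88 and 2.37 (-1.16 ± 0.13, adjusted p = 2.20e-04). SKI (-0.98), SMURF1 (-0.80), SMURF2 (-0.71), BAMBI (-0.71) and SMAD6 (-0.54) fell by less than 2-fold, and TGIF1 (-0.10) and TGIF2 (-1.22) did not pass. With the replicate number as a block SKIL missed the P threshold (adjusted p = 0.0166), and it also lost its call without replicate 2 or 3 and without any 1 of 5 single arrays, with the highest of those 5 adjusted p-values (0.0332) without the TGFβ array of replicate 3. PMEPA1 lost its call without the combined array of replicate 3 (-1.88, adjusted p = 0.014) and without replicate 1 or 2, and SMAD7 without replicate 1 (adjusted p = 0.021).

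Of 15 genes tested from a list of TGFβ-responsive genes, 13 fell at an adjusted p below 0.05 and 10 were called, with 0 higher and a median of -1.79. Over all genes 7.39% were lower at that limit and 2.04% were called lower. The list was written with earlier results of these data known, and it holds IL11 and FOXS1, named above among the largest falls. CCN2, a matricellular protein long used as a readout of the pathway, fell from 4.66, 4.53 and 4.47 to 2.52, 2.10 and 2.35 (-2.23 ± 0.12, adjusted p = 1.87e-06). JUNB, an AP-1 subunit, fell from 0.14, 0.30 and 0.04 to -2.07, -1.70 and -2.46 (-2.24 ± 0.25, adjusted p = 2.02e-04). COL1A1, a chain of type I collagen, fell from 7.57, 7.58 and 7.69 to 6.08, 5.93 and 5.10 (-1.90 ± 0.25, adjusted p = 4.76e-04). The groups did not overlap in these 3 genes, as in all 328 called falls, and COL1A1 was again lowest on the combined array of replicate 3. KLF10 (-0.56) and HMGA2 (-0.32) were the 2 that did not pass. JUNB missed the P threshold without replicate 1 (adjusted p = 0.0219) and COL1A1 without replicate 2 (adjusted p = 0.0249).

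Ligands and antagonists of the activin, nodal and BMP branches also fell in part, 7 of 14 at an adjusted p below 0.05, all of them called, with a median of -0.98. NOG, which encodes the BMP antagonist noggin, fell from 0.14, 0.41 and 0.69 to -3.28, -2.68 and -4.13 (-3.77 ± 0.30, adjusted p = 1.92e-05). LEFTY2, an antagonist of nodal, fell from 0.69, 0.41 and 0.69 to -2.06, -2.13 and -2.66 (-2.88 ± 0.22, adjusted p = 1.59e-05). INHBA, the subunit of activin A, fell from 2.84, 2.88 and 2.91 to 0.70, 0.65 and 0.54 (-2.25 ± 0.10, adjusted p = 6.48e-07). The 3 arrays of each INHBA group lay within 0.2 of each other. LEFTY1 fell by 2.35 with only 1 combined array well above background, and it missed the P threshold (adjusted p = 0.0259) without replicate 3. The exception in the other direction was BMP4, a BMP ligand, which was higher (1.83 ± 0.13, adjusted p = 9.11e-06). ID1 and ID3, inhibitors of bHLH factors that BMP signals switch on, were the only 2 of 10 growth control genes to pass, and both fell: ID1 by 1.55, from 3.35, 3.47 and 3.58 to 2.12, 1.80 and 1.84, and ID3, whose probe lies near the edge, by 1.91. Their relative ID2 had a difference in the other direction (0.86, and 0.74 by another probe) that did not pass. The cell cycle inhibitors CDKN1B (-0.45) and CDKN2C (0.19) and MYC (0.29) did not pass.

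**Figure D4:**
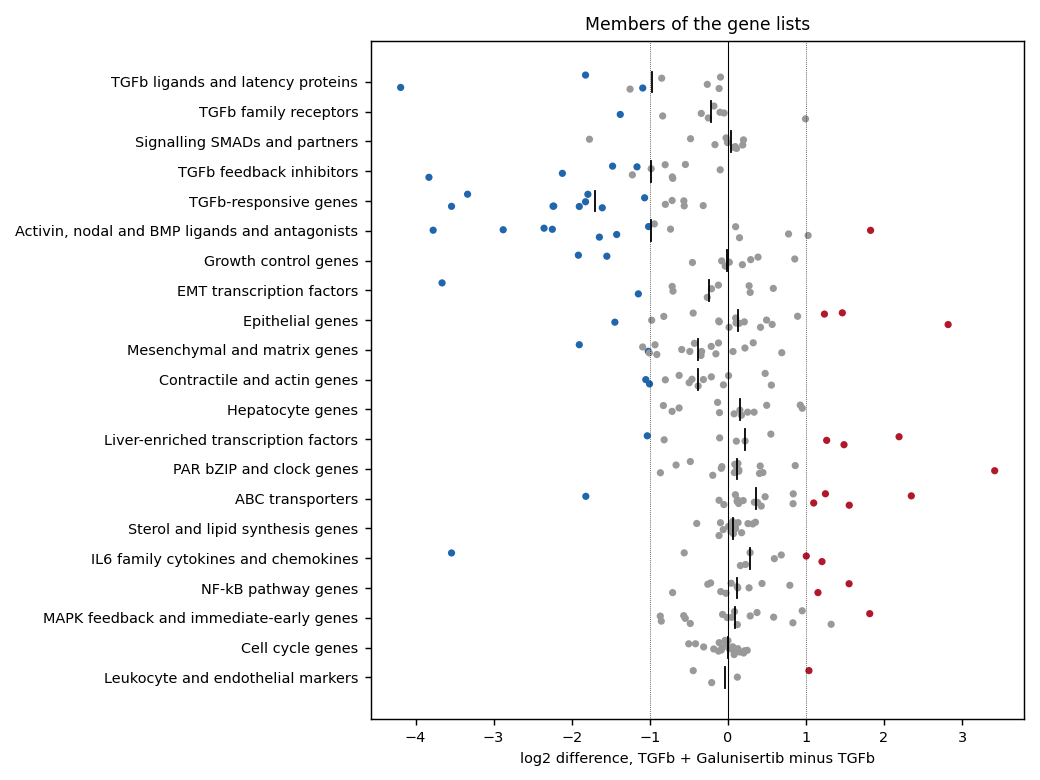
Log2 difference (TGFb + Galunisertib minus TGFb, horizontal axis) of the tested members of each gene list, as 1 point per gene with a bar at the median of the genes drawn; called genes are red (higher) or blue (lower) and the vertical scatter within a list has no meaning. The TGFb ligand, feedback inhibitor, TGFb-responsive and activin lists have medians near or below -0.97, while cell cycle genes lie close to 0.

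Of the EMT transcription factors, 4 of 10 were lower and 1 higher at an adjusted p below 0.05, and the median was -0.24. Besides SNAI1, its relative SNAI2 was called, falling from -0.03, 0.23 and 0.24 to -0.74, -1.09 and -1.17 (-1.15 ± 0.16, adjusted p = 9.28e-04). TCF4 (-0.70) and FOXC2 (-0.71) fell by less, TWIST1 was higher (0.58), and ZEB1 (-0.21) and ZEB2 (0.27) did not pass. SNAI2 missed the P threshold without replicate 2 (adjusted p = 0.0645) or replicate 3 (adjusted p = 0.0306).

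Epithelial genes were split, since 7 of 18 were higher and 3 lower at an adjusted p below 0.05 (median 0.13). CLDN1, a tight junction claudin, rose by 1.47, from 0.06, -0.14 and -0.13 to 1.49, 1.18 and 1.52. ELF3, an epithelial ETS factor, rose by 1.24, from 0.87, 0.86 and 0.94 to 2.06, 2.32 and 2.00. CLDN3 (0.89), KRT18 (0.57) and CGN (0.42) were higher by less than 2-fold. CLDN4, another claudin, went the other way: it was at -2.59, -2.40 and -2.71 with TGFβ, at the floor in all untreated cultures, and at least 2.59-fold lower with galunisertib (adjusted p = 1.81e-05). CLDN4 lost this call with the authors' processed values (adjusted p = 0.137) and with normexp background correction (-0.33, adjusted p = 0.0316). DSP (-0.98), which encodes desmoplakin of the desmosomes, and KRT7 (-0.82) were lower as well.

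Of 18 mesenchymal and matrix genes 7 were lower and 1 higher (median -0.39). CDH2, which encodes N-cadherin, fell by 1.02, from 5.98, 6.07 and 6.01 to 5.13, 4.97 and 4.90 (adjusted p = 5.04e-05). That is close to the 2-fold limit, and the difference was under 2-fold without the TGFβ array of replicate 2 (-0.99) or the combined array of replicate 3 (-0.97). VIM, the intermediate filament of mesenchymal cells, showed -0.12 ± 0.23 (adjusted p = 0.788). Of 13 contractile and actin genes 7 were lower and 1 higher (median -0.38). CNN1 (calponin) fell by 1.05, from 6.92, 7.06 and 7.19 to 5.88, 6.17 and 5.96, and its probe lies near the edge. CNN1 was under 2-fold without the TGFβ array of replicate 3 (-0.99) or the combined array of replicate 1 (-0.99), and it missed the P threshold without replicate 1 (adjusted p = 0.0292) or 3 (-0.97, adjusted p = 0.078). TPM1 (tropomyosin) fell by 1.00, under 2-fold without replicate 2 of either group (-0.96 for each). ACTA2, the smooth muscle actin, was higher (0.48 ± 0.11, adjusted p = 0.0142).

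Among 9 liver-enriched transcription factors, 4 were higher and 1 lower at an adjusted p below 0.05 (median 0.22). ONECUT1, also called HNF6, rose from -1.84, -1.65 and -1.87 to 0.40, 0.53 and 0.29 (2.19 ± 0.18, adjusted p = 2.62e-05). FOXA2, a pioneer factor of liver and gut, rose from 1.63, 1.63 and 1.61 to 2.69, 2.91 and 3.07 (1.27 ± 0.11, adjusted p = 4.74e-05). The groups of arrays did not overlap for either gene, as for all 286 called rises. NR5A2, a nuclear receptor of bile acid synthesis, fell by 1.03, a value that another probe put at -0.31 and that came under 2-fold without the combined array of replicate 2 (-0.94) and just under it without the TGFβ array of replicate 3. Of 13 hepatocyte genes, the kind such factors control in liver, 3 were higher and 2 lower, 0 were called and the median was 0.15, with RBP4 (0.95) and BAAT (0.93) among those higher and F2 (-0.83), the prothrombin gene, among those lower. In the PAR bZIP and clock list 3 of 17 were higher and 2 lower (median 0.11). The PAR bZIP relatives of HLF had 0.86 ± 0.25 for DBP (adjusted p = 0.0404) and -0.08 ± 0.19 for TEF (adjusted p = 0.849), and the core clock gene BMAL1 was lower (-0.66).

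Of 18 ABC transporters tested, 7 were higher and 1, ABCA1, lower (median 0.36). Besides ABCC2, ABCA12, a lipid transporter of the skin barrier, rose from -0.45, -0.48 and -0.25 to 1.21, 1.11 and 1.16 (1.55 ± 0.15, adjusted p = 6.74e-05), ABCA7 by 1.25 and ABCA5 by 1.10. The probes of ABCA12 and ABCA7 lie near the edge. ABCB1, the multidrug transporter, and ABCB4, the phospholipid transporter of bile, were higher by 0.84 and 0.84, while the multidrug transporters ABCC1 (0.12) and ABCC4 (-0.11) did not pass. Of 16 sterol and lipid synthesis genes 0 passed (median 0.07), among them NR1H3, a receptor that switches on ABCA1 (0.04).

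Of 9 IL6 family cytokines and chemokines, 3 were higher and 2 lower (median 0.28). CXCL2, a chemokine for neutrophils, rose by 1.21, from -1.89, -1.91 and -2.22 to -0.66, -0.76 and -0.98, and CCL2, a chemokine for monocytes, by 1.00, from 1.23, 1.19 and 1.30 to 2.15, 2.23 and 2.35. SOCS3 was also higher (0.68), and IL11 and LIF (-0.56) were the 2 lower. CCL2 sits at the 2-fold limit and was under it without the combined array of replicate 3 (0.95) or the TGFβ arrays of replicates 1 (1.00) or 2 (0.98), and CXCL2 missed the P threshold without replicate 1 or 2 (adjusted p = 0.0277 and 0.0429). Another CXCL2 probe, well above background on all 6 arrays, gave 0.21, and the mean of both probes gave 0.71 and no call. Of 13 NF-κB pathway genes 4 were higher and 1 lower (median 0.12). BIRC3, an inhibitor of apoptosis, rose by 1.55, from -1.16, -1.09 and -1.02 to 0.66, 0.63 and 0.10, and the adaptor TRAF1 by 1.15, with only 1 TGFβ array well above background. The probe of BIRC3 lies near the edge, and BIRC3 missed the P threshold without replicate 2 (adjusted p = 0.0299), and TRAF1 without replicate 2 or 3 of either group. The NF-κB subunits NFKB1 (0.12), RELA (-0.22) and RELB (0.13) did not pass.

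Of 17 MAPK feedback and immediate-early genes 4 were higher and 2 lower (median 0.09). SPRY1, a sprouty inhibitor of RAS signalling, rose from -1.40, -1.47 and -1.77 to -0.03, 0.35 and 0.49 (1.82 ± 0.17, adjusted p = 5.11e-05), and DUSP6 (0.95) and DUSP5 (0.83), phosphatases of ERK, were higher by less. SPRY2 was lower (-0.87), so the sprouty genes did not move together. Of 21 cell cycle genes CCNE1 alone passed, lower by less than 2-fold (-0.41), and the median was 0.00, with 0.25 for MKI67 and 0.13 for TOP2A. Of 4 leukocyte and endothelial markers that could be tested, CD14 was higher (1.04, from -3.08, -3.23 and -3.46 to -2.49, -2.15 and -2.03), under 2-fold without replicate 3 of either group, and PTPRC (0.12), VWF (-0.21) and CDH5 (-0.44) did not pass.

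Set beside the untreated control, TGFβ alone gave 375 called genes (2.33%) and the combined treatment 60 (0.373%). Each of these comparisons shares arrays with the one described here, so their values are given side by side only. Control arrays also lay in a different slide row from arrays with TGFβ, so row and treatment cannot be told apart in them. The median over the 286 called rises was -0.99 for TGFβ minus control and 0.40 for the combined treatment minus control, and over the 328 called falls 1.17 and -0.28. For SNAI1 the values were 3.40 and -0.26, for HLF -2.74 and 0.67, for CDH1 -2.00 and 0.82, for ABCC2 -1.85 and 0.50, and for ABCA1 1.49 and -0.33. Not all genes came back near the control. GDF6 ended at -1.88 from control (adjusted p = 0.0105), below its level of -1.82, -1.34 and -1.31 in untreated cultures. Among the called falls the combined treatment was more than 2-fold from control in the point estimate for 33 of 328, and among the called rises for 6 of 286. Over all 16072 genes this held for 341, a share close to that of the rises and below that of the falls.

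Galunisertib without TGFβ shares no array with the comparison described here, but it ran between the same columns of the slides. It called 183 genes (1.14%). Of the 614 genes called with TGFβ present, 527 (85.8%) differed in the same direction without it, against 61.4% of all genes. Of these 527 genes 278 also had an adjusted p below 0.05 (all genes in either direction, 7.47%). The shares by direction count the sign of every difference, also of those within about 0.2 of 0, whose sign depends on the scaling. Without TGFβ the median was 0.62 over the 286 rises and -0.47 over the 328 falls, genes that were chosen for a large difference with TGFβ present. Over all 16072 genes the median absolute difference was 0.21 with TGFβ and 0.20 without it. Some genes showed almost nothing without TGFβ: LEFTY2 (0.02, with control arrays at -2.77, -2.23 and -2.34 and galunisertib arrays at -2.03, -2.53 and -2.70), the Notch ligand JAG1 (0.15), ABLIM3 (-0.11) and RIPOR3 (-0.01). JAG1 stood at 2.98, 3.10 and 3.11 with TGFβ and at 0.36, 0.23 and -0.39 with both (-3.00 ± 0.23, adjusted p = 1.59e-05), the latter close to the control arrays (-0.07, 0.60 and 0.47).

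For other genes galunisertib alone gave the lowest level of all 4 groups, though its arrays lay in a different slide row from those with TGFβ. IL11 stood at 2.69, 2.77 and 2.96 in control cultures and at -1.02, -3.09 and -2.59 with galunisertib alone (-5.04), while with both treatments it stayed above 1 on every array. FOXS1 showed -4.29 with galunisertib alone, PMEPA1 -3.50, SKIL -2.62 and SMAD7 -1.90, and on every combined array each of these was above every array with galunisertib alone. The pseudogene H1-9P, a histone H1 relative, fell by 2.03 with TGFβ present and by 3.98 without it. The difference between the galunisertib effects with and without TGFβ was called for 219 genes (1.36%), 68 of them positive (0.423%) and 151 negative (0.94%). With the arrays scaled to their medians the split was 32 to 178, and with a percentile of the commonly detected probes it was 94 to 122.

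**Figure D5:**
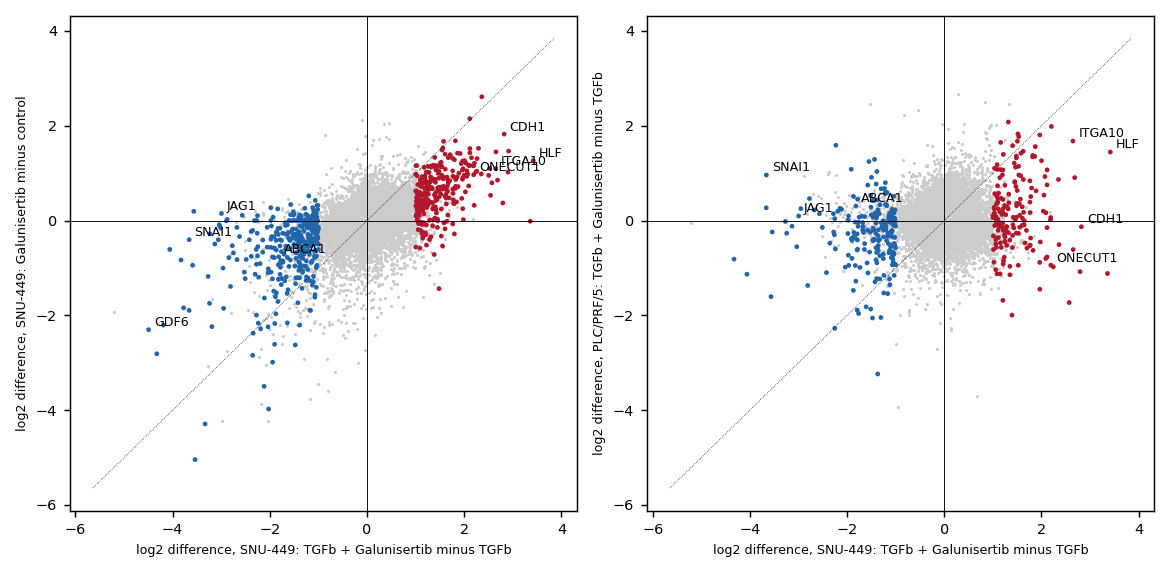
Log2 difference for galunisertib added to TGFb in SNU-449 (horizontal axis) against that for galunisertib alone in SNU-449 (left) and for galunisertib added to TGFb in PLC/PRF/5 (right, genes well above background on all 6 PLC/PRF/5 arrays and read from the same probe), 1 point per gene, with genes called in the first in red (higher) or blue (lower) and a dotted line at equal values. Called genes lie mostly on the side of the same sign in the left panel, and are scattered about 0 in the right panel.

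The same comparison in PLC/PRF/5, at the same doses and time, called 508 of 17853 genes (2.85%) in the fit over all 24 arrays. Among the genes called in SNU-449 that were well above background on all 6 PLC/PRF/5 arrays and read from the same probe, 232 of 371 (62.5%) differed in the same direction there, against 52.8% of all such genes, and 132 passed in the same direction and 54 in the opposite direction at an adjusted p below 0.05. Of all 14179 such genes 2740 passed in the same direction and 1891 in the opposite one, and of all 17853 genes tested 31.1% passed in either direction. The direction was the same for 137 of 202 falls (67.8%) and 95 of 169 rises (56.2%). Here too signs were counted for differences of any size. Of the 4 feedback inhibitors called in SNU-449, SMAD7 (-1.54), SKIL (-2.06) and PMEPA1 (-2.34, well above background on 3 of 6 arrays) were lower in PLC/PRF/5 as well, while LDLRAD4 was at the floor in both groups there. The BMP receptor gene BMPR2 fell there too (-1.51). HLF (1.45), ABCC2 (0.87), ITGA10 (1.68), CLDN1 (1.13) and SPRY1 (1.34) rose in both lines. SNAI1 went the other way in PLC/PRF/5 (0.96, adjusted p = 7.17e-07), and so did CCN2 (1.59), ID1 (1.25), ID3 (1.08) and ONECUT1 (-0.94). CDH1 showed -0.13 (adjusted p = 0.723) in PLC/PRF/5, where its mean level was 2.54 with TGFβ and 2.41 with both, about 6 above its level in SNU-449 with TGFβ. The difference between the lines was called for 1100 of 17853 genes (6.16%), 651 (3.65%) more positive and 449 (2.51%) more negative in SNU-449, and for 598 when only probes detected on each of the 24 arrays were kept. That split depends on the scaling, with 301 and 948 after scaling to the medians and 952 and 294 with a percentile of the commonly detected probes.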

How the data were processed

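Total RNA of 24 cultures was labelled with Cy3 and hybridised to 1-colour Agilent arrays by the authors. They deposited scanner files of Agilent Feature Extraction 10.7.3.1 (per the labels), whose processed signal is an intensity after background subtraction, without normalization between arrays, and a table of log2 values normalized by the authors, in which each probe was centred on its median. The table's differences between arrays matched those computed here (r = 0.9995, slope 1.00, across 19267 probes), and it served as an alternative only.

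Control spots and outlier spots were left out, spots of 1 probe were averaged, and intensities were divided by the 75th percentile of the array, floored at 5.70% of it and converted to log2. Probes were kept if detected well above background throughout at least 1 group of the fit, and the brightest represented its gene. Of 58201 probes, 31104 were named through RefSeq (GRCh38.p14), 10719 by LNCipedia names in the files and 16378 stayed unnamed. limma 3.58.1 in R 4.3.3 (lmFit, contrasts, eBayes) was fitted over the 12 SNU-449 arrays, and over 24 for the lines. The methods name a test with a random variance model, for which limma stands. The normexp alternative used the median signal, since the mean signal planned was not among the columns. The steps were tested on simulated data. The number of arrays limits the precision, and bounds cover the measured signal only.

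Replicates of 1 number share a slide. Deviations of same-numbered arrays correlated at 0.20, 0.27 and 0.10. The main fit did not pair arrays by number, and the fit with the number as a block is an alternative.

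The comparison, the 21 gene lists and the rules were chosen with earlier results of these data known. The genes named are SNAI1, ABCC2, ABCA1, HLF and CDH1, the 10 largest called rises and falls with a RefSeq symbol, well above background on all 6 arrays and not overlapping, at most 4 called members of each list, the 5 largest differences in each direction for the tests between settings and lines, and the 3 largest bounds each way. Other list members are given with their values as chosen after these were seen. Not every gene these rules select is reported here. Alternatives varied the background correction, scaling, filter, probe summary, floor, replicates, array edge, samples and test.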

Additional observations from a re-analysis of the deposited data

Results flagged for a closer look

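Within SNU-449 the effect of galunisertib differed between cultures with and without TGFβ, as tested by the difference of the log2 effects in limma (with TGFβ minus without, ± SE). The difference was negative for genes whose difference without TGFβ did not pass: SNAI1 (-3.26 ± 0.17, adjusted p = 9.25e-06), CLEC18B (-3.45 ± 0.35, adjusted p = 6.79e-04), JAG1 (-3.15 ± 0.32, adjusted p = 6.79e-04), ABLIM3 (-2.93 ± 0.27, adjusted p = 3.52e-04) and LEFTY2 (-2.90 ± 0.31, adjusted p = 8.56e-04). It was positive for RIPOR3 (3.37 ± 0.49, adjusted p = 0.00563), HLF (2.16 ± 0.27, adjusted p = 0.00209), SLC16A5 (1.83 ± 0.17, adjusted p = 4.62e-04) and ABCC2 (1.37 ± 0.16, adjusted p = 0.00157), whose rise was larger with TGFβ. It was also positive for H1-9P (1.95 ± 0.33, adjusted p = 0.012) and RRP7A (1.77 ± 0.24, adjusted p = 0.00393), genes that were lower with galunisertib alone, by 3.98 and 1.69. With 1 replicate number left out, RIPOR3 missed the P threshold without replicate 2 (adjusted p = 0.185), H1-9P without replicate 1 or 2 and RRP7A without replicate 1 or 3. With normexp background correction HLF (0.98, adjusted p = 0.0379), H1-9P (0.70, adjusted p = 0.161) and RRP7A (0.90, adjusted p = 0.0118) lost their call. CDH1 and ABCA1 showed differences of 1.00 and -1.05 that did not pass (adjusted p = 0.189 and 0.105). The control arrays of SNAI1, CLEC18B, ABLIM3 and LEFTY2 lay too near the floor for a fall as large as that with TGFβ to be read.

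Between the lines, the effect of galunisertib added to TGFβ was tested as SNU-449 minus PLC/PRF/5. It was more negative in SNU-449 for SNAI1 (-4.62 ± 0.14, adjusted p = 7.24e-14), CCN2 (-3.82 ± 0.21, adjusted p = 3.29e-10), IL11 (-3.30 ± 0.48, adjusted p = 5.52e-05), ADAM19 (-3.25 ± 0.23, adjusted p = 7.59e-09), JAG1 (-3.09 ± 0.28, adjusted p = 1.75e-07) and ABCA1 (-2.13 ± 0.23, adjusted p = 1.81e-06). It was more positive in SNU-449 for RIPOR3 (4.48 ± 0.50, adjusted p = 2.77e-06), PRRT2 (4.36 ± 0.47, adjusted p = 1.54e-06), WDR72 (3.26 ± 0.41, adjusted p = 1.07e-05), SLC17A3 (3.22 ± 0.28, adjusted p = 9.58e-08), ONECUT1 (3.13 ± 0.20, adjusted p = 2.08e-09), CDH1 (2.95 ± 0.28, adjusted p = 4.13e-07), HLF (1.97 ± 0.21, adjusted p = 1.67e-06) and ABCC2 (1.48 ± 0.13, adjusted p = 1.36e-07). PRRT2 showed -3.69 in PLC/PRF/5, while in SNU-449 it was not called (0.66 ± 0.43, adjusted p = 0.349). IL11 missed the P threshold without replicate 3 (-2.91, adjusted p = 0.0183). The probes of RIPOR3, RRP7A, PRRT2 and IL11 lie within 10 rows or columns of the edge of the array, and the part of that position in these results was not tested. Groups of 3 arrays were too small for a test of single outlying arrays.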

How the results depend on the processing

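Of 68 genes chosen by the rules, 67 kept their direction under every alternative run and 34 also kept every call. The exception in direction was RRP7A, not called for galunisertib added to TGFβ (0.09), with -0.076 after scaling to the median, -0.093 without scaling and values from -0.0011 (without replicate 3) to 0.17 when a replicate number was left out. Normexp on the median signal called 375 genes in place of 614, 96 in place of 219 for the difference with and without TGFβ, and 638 in place of 1100 for the difference between the lines, with smaller differences for dim genes such as LTBP1 (-0.20), and 31.7% of its 375 calls were higher, against 46.6%. The plain t-test, which lacks the methods' random variance model, called 383 genes, and 636 by fold and adjusted p. With only probes detected on each array, the lines differed in 598 genes. Leaving out 1 replicate number gave 435 to 594 genes, 143 to 171 for the difference with and without TGFβ (lowest without replicate 2) and 823 to 947 for the lines, and leaving out 1 of the 6 arrays gave 528 to 602. With the replicate number as a block 576 genes were called, 565 of them among the 614, and of the named genes only SKIL and EID3 lost their call. By fold above 2 and adjusted p, a rule chosen after the data were seen, 237 genes differed with and without TGFβ and 1494 between the lines. Signals near the background limit the dim genes, for which a fall is a bound, and position on the slide and treatment cannot be told apart.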
